A study of Arabidopsis thaliana with 4 samples.

Results

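The probes described here are those of plates 0 to 13 of the TC plate series on a printed array of Arabidopsis DNA, 1281 of the 21728 probes with a value (5.90%). They were taken by name: TC, the plate number, then the well. These plates list 1282 wells, of which 1 is empty, and plate 13 stops after 34 wells. The range was chosen by the medians of its plates in both replicates, after these had been seen, so the level of its probes is described and not tested. All came from untreated Arabidopsis thaliana of accession Col-0, taken as whole seedlings at 10 days after growth in liquid medium at 22 °C with 16 hours of light a day, in which chromatin precipitated with an antibody against H3K4me2 was set against its own input DNA. There were 4 arrays of 1 group, a dye swap (a repeat of the hybridisation with both dyes exchanged) for each of replicates I and II. Both arrays of a swap held identical values (0 features differed), so each swap is 1 profile and n is 2. The labels name no mutant, no other antibody and no control precipitation. A whole seedling mixes many cell types, so a value is an average over them. The labels do not say whether I and II were separate cultures, so the spread between them may be technical.

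H3K4me2 is histone H3 carrying a pair of methyl groups on lysine 4. Enzymes with a SET domain, among them relatives of the yeast COMPASS subunit Set1, place methyl groups on this lysine, and demethylases of the LSD1 and JmjC families remove them. In Arabidopsis the mark lies mostly on genes, active and less active ones alike, and is scarce on silenced transposons and in heterochromatin. A tiling profile of it therefore usually alternates between marked and unmarked stretches.

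Every value below is a log ratio of the immunoprecipitate and input channels after subtraction of the median of all valued probes of the same replicate. Neither the base of the logarithm nor the direction of the ratio is given in the sources used here. "Higher" and "lower" thus mean above and below the median probe on the deposited scale, and no fold change is given. A pair of values gives replicate I and then replicate II. No probe name of these plates matched a gene table of 38312 entries (0 matches), so probes are named by plate and well, and no genes, positions or sequences are given. Probes were taken in the order of the wells along each plate row, 12 wells to a row and 96 to a plate. A probe was called higher or lower when limma, fitted on all probes with Benjamini-Hochberg adjustment at 0.05, separated its mean from 0; the smallest values called among these plates were 0.30 and -0.30.

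TC plates 0 to 13 were not uniformly high. Their median was 0.38 and 0.37 in replicates I and II (0.37 ± 0.0094, SD, n = 2). Plates 0 to 4 lay at the array median, with 0.042 and -0.013 in replicates I and II, while plates 5 to 12 stood at 0.54 and 0.52. Plate 13 was back near 0, at -0.12 and -0.0092. With the array median as centre, the name "high-level" thus fits the pooled median of plates 5 to 12 but not each of these plates. The division into plates 0 to 4, 5 to 12 and 13 was drawn from these same values. Plate 11, at 0.24 and 0.32 in replicates I and II, lay below the TB series of the same array, at 0.33 and 0.36. The other plates from 5 to 12 lay above the TB series in both replicates. Single TB plates reached a median of 0.76, so such levels were not particular to plates 5 to 12. Plates 5 to 12 exceeded plates 0 to 4 by 0.50 and 0.53 in replicates I and II. These levels depend on the centre: set against the most common value of each profile, which lies above its median, plates 0 to 13 were at -0.20. That most common value was 0.51 and 0.63 in replicates I and II. The pooled median of plates 5 to 12 was above it in replicate I and below it in replicate II.

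**Figure D1:**
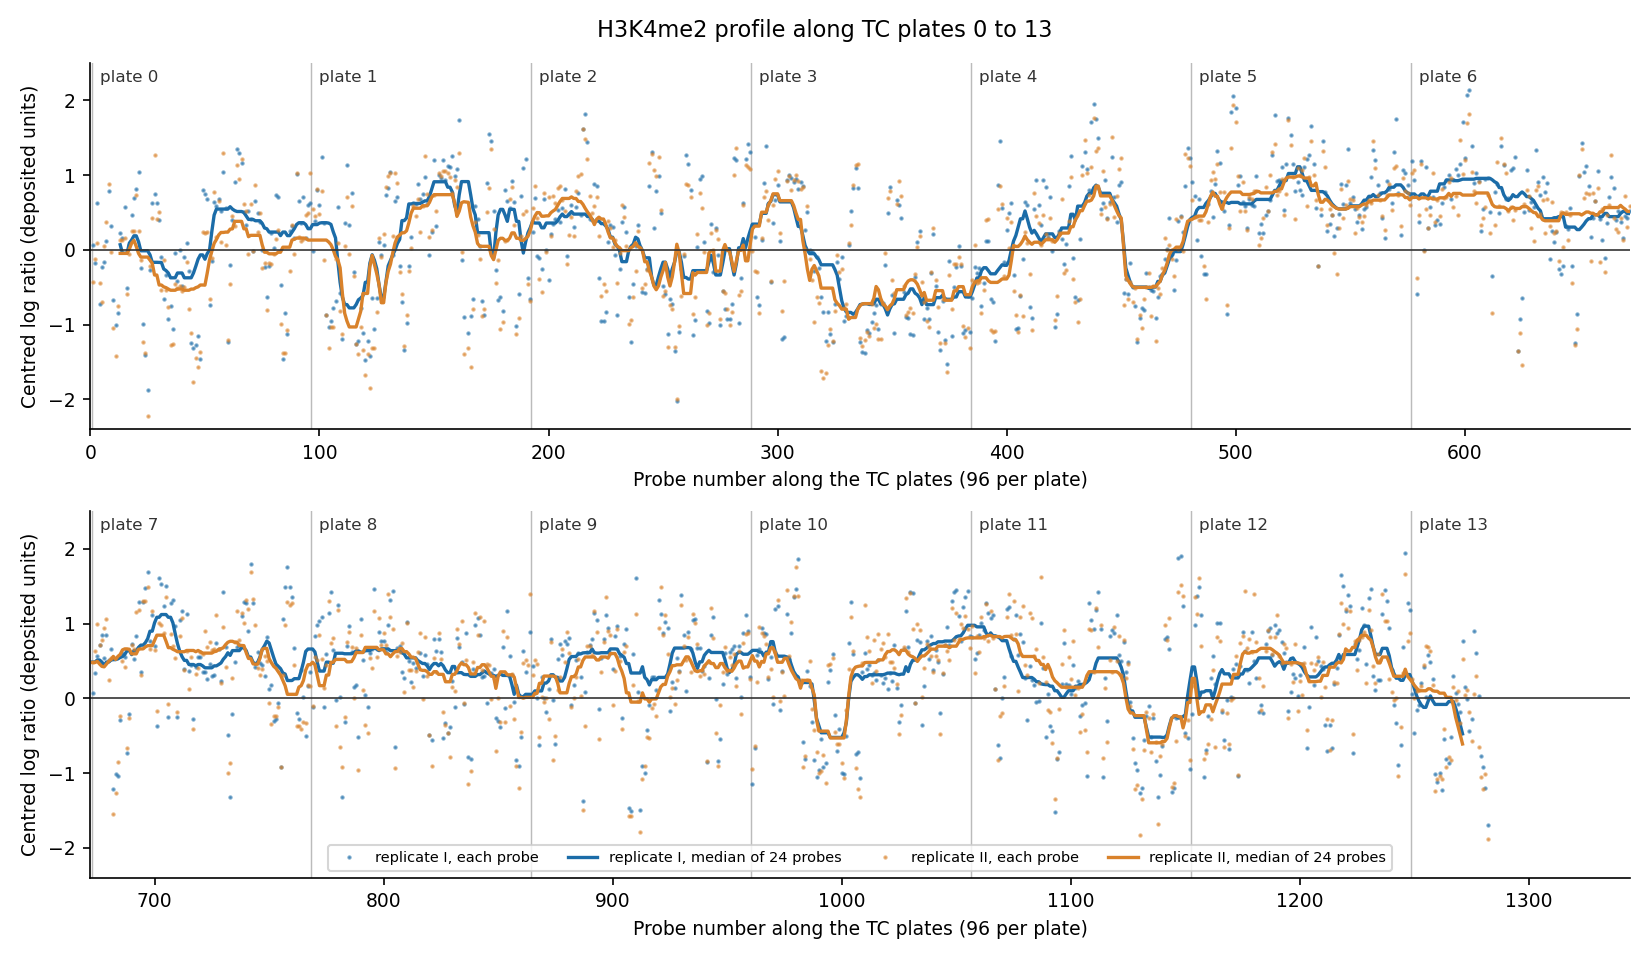
Centred log ratio (vertical axis, deposited units) of each probe along TC plates 0 to 6 (top) and 7 to 13 (bottom), with points for single probes and lines for the median of 24 consecutive probes, replicate I in blue and replicate II in orange. Both replicates rise and fall together, with low stretches in plates 1 and 3 and a long high stretch from the end of plate 4 to plate 10.

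Taken plate by plate, the series opened close to the array median. Plate 0 was at 0.13 and -0.052 in replicates I and II, plate 1 at 0.32 and 0.16, and plate 2 at 0.16 and 0.19. Plate 3 was the lowest of the 14 plates, at -0.41 and -0.40 in replicates I and II. Plate 4 had medians of 0.095 and 0.046. The replicates disagreed on the sign of plate 0 and agreed on that of plates 1 to 4.

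The highest plate followed immediately. Plate 5 had medians of 0.73 and 0.68 in replicates I and II, which exceeded plate 3 by 1.14 and 1.08. From there the medians were lower again, with plate 6 at 0.67 and 0.57, plate 7 at 0.55 and 0.61, and plate 8 at 0.48 and 0.46. Plates 9, 10 and 12 held a similar level, at 0.53 and 0.36, 0.39 and 0.51, and 0.46 and 0.48 in replicates I and II. Plate 11 between them was lower, at 0.24 and 0.32. All plates from 5 to 12 were above 0 in both replicates. Their order is only partly settled, since the SD between the replicates of a plate median reached 0.13 among the 14 plates (plate 0) and neighbours such as plates 8, 9 and 10, with means of 0.47, 0.45 and 0.45, differed by less than that.

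**Figure D2:**
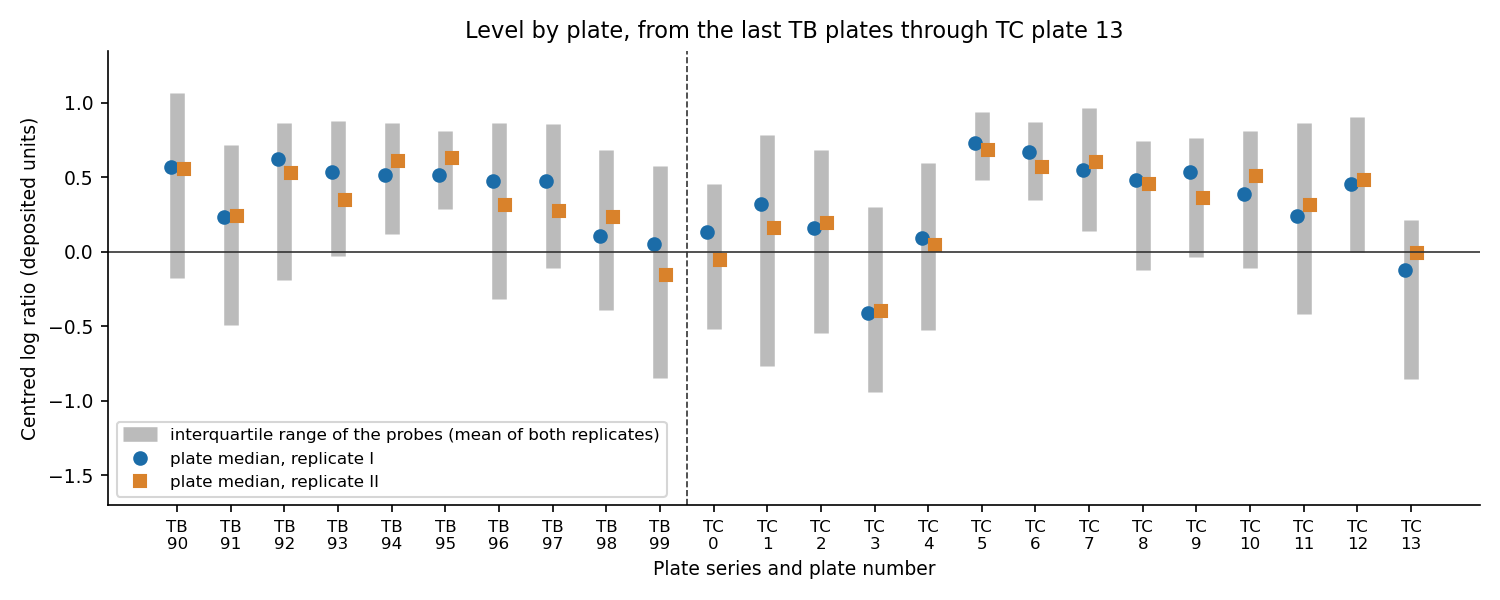
Plate medians in replicate I (circles) and replicate II (squares), in deposited units, for TB plates 90 to 99 and TC plates 0 to 13, with the interquartile range over the probes of a plate in grey. The medians fall over the last TB plates, stay near 0 through TC plate 4 apart from a dip at plate 3, and stand highest at TC plate 5, before a last drop at plate 13.

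Plates also differed in how far their probes were spread and in how many were called lower, which 40.2% of all probes on the array were. Plate 5 was the most even: the SD of its probes was 0.47, and 2 of its 96 probes were called lower. Plate 1, with an SD of 0.84, was the most mixed, and 35 of its 95 probes were called lower. In plate 3, 54 of 96 probes were called lower. In plates 5 to 12, 14.8% of 768 probes were called lower, where 39.2% of 479 were in plates 0 to 4, which is close to the share on the array.

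Over all TC plates 0 to 13, 706 probes (55.1%) were called higher, where 40.3% of all probes on the array were, and 317 (24.7%) were called lower, where 40.2% of all were. The remaining 258 passed neither way. Since level chose these plates, nothing is read from those shares. They also depend on the centre: centred on the main mode, 224 were called higher and 528 lower, which turns the majority round, and without centring 655 were called higher and 156 lower. Plates 5 to 12 had 511 probes called higher and 114 called lower. Plates 0 to 4 had 188 of each. In plate 13, 7 were called higher and 15 lower. Values of the probes called higher had a median of 0.77 and 0.73 in replicates I and II, and those called lower had medians of -0.78 and -0.83.

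The main concentration of probes was between 0.5 and 1 in plates 5 to 12, with 280 probes (36.5%), and there were 96 of 479 in plates 0 to 4. Between -1 and -0.5 the order was the other way, with 56 probes (7.29%) in plates 5 to 12 and 97 (20.3%) in plates 0 to 4. The TB series held 26.7% of its probes between 0.5 and 1, and 12.2% between -1 and -0.5. Very low probes were rare in these plates: 12 of 1281 (0.937%) lay under -1.5. In the TC plates 17 to 30, which follow in number, the median alone was -1.56 and -1.68 in replicates I and II.

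**Figure D3:**
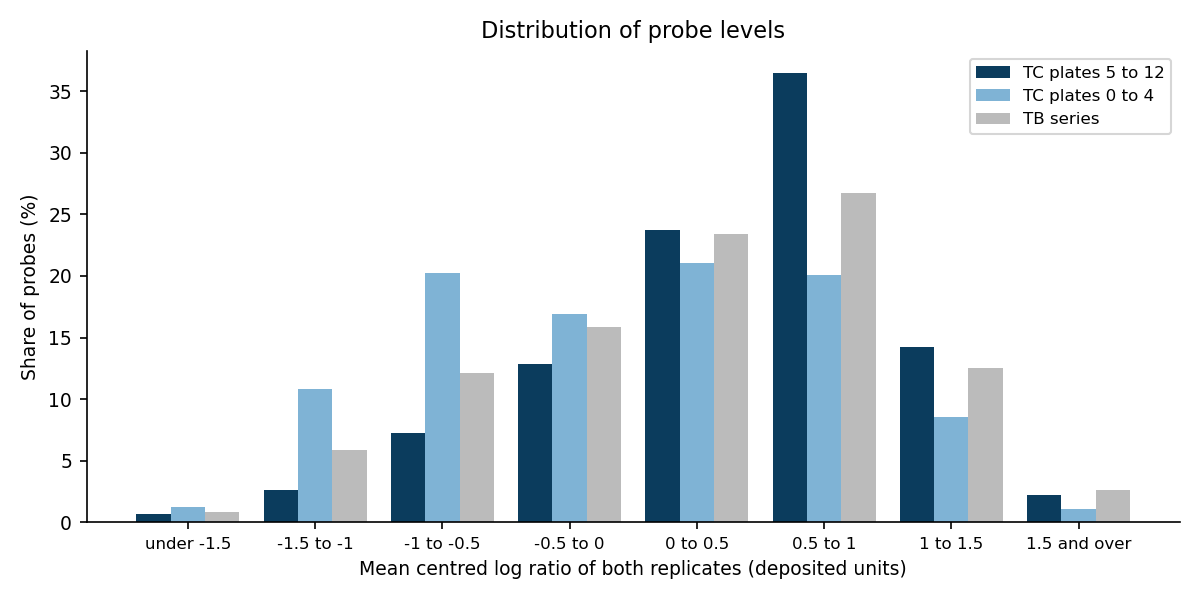
Share of probes (percent) in bands of the mean centred log ratio of both replicates, for TC plates 5 to 12, TC plates 0 to 4 and the TB series. Plates 5 to 12 hold 36.5% of their probes between 0.5 and 1, and plates 0 to 4 have 20.3% between -1 and -0.5.

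As a whole, TC plates 0 to 13 were at the level of the TB series, with medians of 0.38 and 0.37 in replicates I and II, against 0.33 and 0.36 for the 9588 TB probes. The difference of 0.031 ± 0.033 (SD, n = 2) was within the spread between replicates, and it was -0.0076 with means in place of medians. TA plates 1 to 20 (1912 probes) were equally close, at 0.33 and 0.36. The spread over probes was 0.74 in TC plates 0 to 13, 0.75 in the TB series and 0.82 in TA plates 1 to 20 (SD of the replicate means). Among plate medians the range was -0.41 to 0.71 over the 14 TC plates, and -0.50 to 0.76 over the 100 TB plates. No test was made of these differences, since a sign-flip test with 2 replicates cannot go below a two-sided p of 0.5 and level had chosen the plates.

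On the finer scale of plate rows, that is 12 consecutive probes, 83 of 107 rows had a median above 0. The longest uninterrupted stretch of such rows ran from row H of plate 4 to row B of plate 10, which is 43 rows with 516 probes. Its lowest row was at 0.028 and its highest at 1.06. It was followed by a pair of low rows, C and D of plate 10, row C at -0.43 and -0.29 and row D at -0.60 and -0.61 in replicates I and II. A further 10 rows above 0 led from row E of plate 10 to row F of plate 11. Row G of plate 11 then stood at -0.74 and -0.70 in replicates I and II, and another 10 rows above 0 went from row H of plate 11 to row A of plate 13. The high stretch of plates 5 to 12 was thus broken at plate 10 and at plate 11, at the scale of rows.

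The longest stretch of rows not above 0 had 8 rows and 96 probes, from row C of plate 3 to row B of plate 4. Row E of plate 3 was the lowest row of all, at -0.90 and -1.07 in replicates I and II, and the mildest of these rows had a mean of -0.042. It was not a level floor: it held 2 separate runs of 11 and 10 low probes, described below, and between them TC03D11 was at 0.82 and 1.15. Before it, row B of plate 3 stood at 0.88 and 0.83, so the change from a high to a low stretch took place inside plate 3 and not at its border. The lowest window of 24 probes lay elsewhere, from TC01A05 to TC01C04, with a median of -0.78 and -1.03 in replicates I and II. The highest window, TC07B05 to TC07D04, had 1.09 and 0.85.

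The probes called higher fell into 168 runs along the wells, 4.20 probes long on average. Of these runs, 43 were single probes and 16 had at least 10 probes. Those 16 runs held 233 of the 706 probes called higher (33.0%). The median length was 3 probes, so most high runs were short and a few were long. The number rests on ending a run at any uncalled probe: when 1 uncalled probe did not end it, there were 93 high runs.

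The 5 longest high runs were found in plates 4, 5, 6, 10 and 11. Run TC05C08 to TC05E07 had 24 probes with a mean of 1.01 and 0.95 in replicates I and II, and peaked at TC05D07 (1.75). A second run of 24 probes, TC06A07 to TC06C06, averaged 0.97 and 0.84 and contained TC06C02, the second highest probe of these plates. Run TC10G12 to TC11A10, with 23 probes and means of 0.998 and 0.84, crossed the border between plates 10 and 11 without a break. Run TC05F05 to TC05G12 had 20 probes at 0.73 and 0.64. The last of the 5, TC04E01 to TC04F06, had 18 probes at 1.03 and 0.99, and it lay in a plate whose own median was close to 0.

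Directly after that run came the longest low run of these plates. TC04F07 to TC04G11 had 17 probes with a mean of -0.62 and -0.69 in replicates I and II, and the change from TC04F06 to TC04F07 had no uncalled probe between. Plate 4 therefore holds a long high run and the longest low run side by side, which its median of 0.070 does not show. The other long low runs lay in plates 1 to 3. TC01B07 to TC01C05 had 11 probes at -1.01 and -1.25, and TC03D12 to TC03E10 had 11 at -1.02 and -1.07. TC03C04 to TC03D01 had 10 probes at -0.72 and -1.16 in replicates I and II, the pair of these runs' means that lay farthest apart. TC02E10 to TC02F06 had 9 probes at -0.92 and -0.99, with TC02F04 as its lowest. None of the 5 longest low runs was in plates 5 to 12, with 768 of the 1281 probes, or in plate 13, with 34 (0 of 5).

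Low runs were 113 in all, with a mean length of 2.81 probes, and 41 were single probes. In plates 5 to 12 there were 57 low runs with a mean length of 2.00, of which 30 were single probes and the longest had 6. In plates 0 to 4 there were 53 with a mean length of 3.55, of which 11 were single probes and the longest had 17. High runs had a mean length of 4.69 in plates 5 to 12 and 3.30 in plates 0 to 4. Plates 5 to 12 thus had fewer low probes and shorter low runs. Run length and the share of low calls are linked, and whether the low runs were shorter than that share alone would give was not tested. These run lengths were taken from the values that chose the plates and are given as a description.

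**Figure D4:**
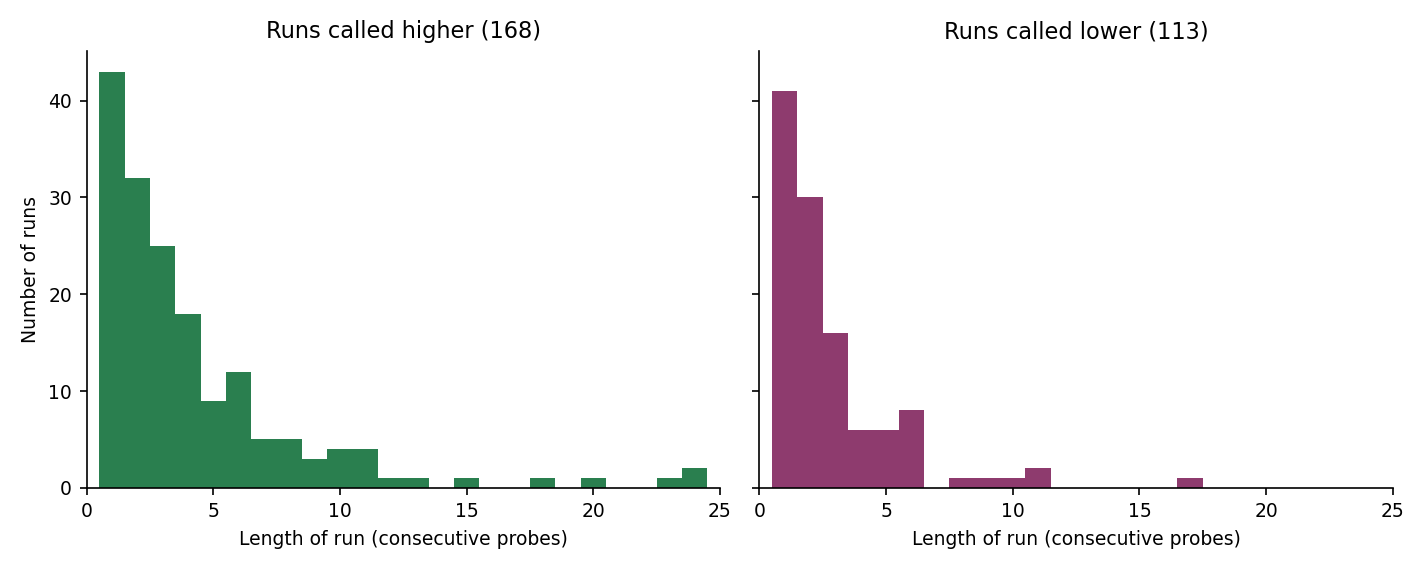
Number of runs by length, in consecutive probes, for probes of TC plates 0 to 13 called higher (left, 168 runs) and lower (right, 113 runs). Most runs are short, and the longest high runs reach 24 probes where the longest low run has 17.

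Run lengths in TC plates 0 to 13 were close to those elsewhere. High runs averaged 4.20 probes, against 4.32 in the TB series and 4.48 in TA plates 1 to 20, and low runs 2.81, against 2.95 and 3.10. There were 13.1 high runs per 100 probes in TC plates 0 to 13, against 12.2 in the TB series and 11.8 in TA plates 1 to 20.

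Of the 5 highest probes, 4 lay in neighbouring pairs. TC05B07 was the highest of all 1281, at 2.06 and 1.93 in replicates I and II, and its neighbour TC05B08 was the fifth, at 1.90 and 1.71. TC06C02 (2.14 and 1.81) and TC06C01 (2.07 and 1.69) were the second and the third. TC04E06, the fourth, stood at 1.95 and 1.76. All of these exceeded the median probe by far more than the replicates differed from each other. Plates 5 to 12, with 768 of the 1281 probes, held 16 of the 20 highest, and plates 0 to 4, with 479, the other 4. The division of the plates was drawn from these values, so nothing is read from those counts.

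The lowest probes were more scattered. TC00C01 was the lowest, at -1.88 and -2.22 in replicates I and II, followed by TC02F04 at -2.02 and -1.99. The next was TC13C10, the very last probe of plate 13, at -1.69 and -1.88. TC09D12 (-1.49 and -1.78) lay inside the high plates, and TC01C02 (-1.42 and -1.85) in the lowest window named above. Of the 20 lowest, plates 5 to 12 (768 probes) held 8, plates 0 to 4 (479) held 11 and plate 13 (34) held 1. Here too the counts only describe a division drawn from the values.

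Changes between high and low were often abrupt. From one probe to the next the median size of the step was 0.33, and 120 of 1279 steps (9.38%) were larger than 1. Such steps were no rarer elsewhere, at 9.63% in the TB series and 10.9% in TA plates 1 to 20. The median sizes there were 0.33 and 0.34. Between a higher and a lower call there was no uncalled probe in 104 of 181 changes (57.5%) and 1 uncalled probe in 52. In the TB series, 564 of 1201 changes (47.0%) had none between, and in TA plates 1 to 20 131 of 262; these shares were not tested against each other.

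The largest step was a fall from TC09D06, at 0.93 and 0.70 in replicates I and II, to TC09D07, at -1.47 and -1.57. TC06D10 to TC06D11 fell by 2.24 on average, right at the end of a run of 10 high probes. TC03D11 to TC03D12 fell by 2.19 and opened the 11-probe low run of plate 3. The next steps were falls by 2.09 at TC11H03 to TC11H04 and by 2.07 at TC02H06 to TC02H07. The 5 largest steps were all downward along the well order and were present in both replicates, but the next 5 held upward steps too, the largest being 2.06 at TC11H06 to TC11H07.

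Neighbouring probes had similar values. Across 1279 pairs of consecutive probes, which share their array, their hybridisation and possibly sheared fragments, Pearson's r was 0.658, and it was 0.640 and 0.643 in replicates I and II. It was 0.367 at a distance of 2 probes, 0.209 at 3 probes and 0.141 at 12 probes, and near 0 (0.00014) at 96 probes. With the plate medians subtracted, r of consecutive probes was 0.608; the likeness of neighbours was thus mostly finer than plates.

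Across the border from the TB series the level changed by little. TC plate 0 had medians of 0.13 and -0.052 in replicates I and II, against 0.050 and -0.16 in TB plate 99. TC plate 0 was thus the higher, by 0.084 and 0.11 in replicates I and II (0.095 ± 0.016, SD, n = 2). With 24 probes on either side of the border the difference was 0.14, and with means of the whole plates 0.026. It is small beside the 1.11 ± 0.043 (SD, n = 2) by which plate 5 exceeded plate 3. The level had come down before the border: TB plate 97 stood at 0.47 and 0.27, and TB plate 98 at 0.11 and 0.23. TB plate 99 was the lowest of the last 10 TB plates, and TC plates 0, 1 and 2 stood above it in both replicates. Pooled, TC plates 0 to 4 were thus close to TB plates 98 and 99. Their medians were 0.042 and -0.013, against 0.057 and 0.090 in those TB plates. The last 14 TB plates together stood higher, at 0.41 and 0.39 in replicates I and II.

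At the border itself the first probes of the TC series were mixed. TC00A01 was at 0.072 and -0.43 in replicates I and II, TC00A02 at -0.18 and -0.12, and TC00A03 at 0.62 and 0.089. TC00A04 (-0.73 and -0.45) and TC00A05 (-0.23 and -0.69) were lower. The last 5 probes of TB plate 99 moved from low to high: TB99H08 was at -1.05 and -0.42, TB99H09 at -0.75 and -0.77, TB99H10 at -1.17 and -1.37, TB99H11 at 0.085 and 0.11, and TB99H12 at 0.53 and 0.47. The step over the border, from TB99H12 to TC00A01, was -0.45 and -0.90 in replicates I and II. Steps at least as large as its mean of -0.68 made up 23.3% of the steps within TC plates 0 to 13, so steps of this size were common in the profile.

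Plate 13 was lower than the plates before it. Its 34 probes had medians of -0.12 and -0.0092 in replicates I and II, against 0.40 and 0.38 in plates 0 to 12, a difference of -0.45 ± 0.089 (SD, n = 2). Against plate 12 alone the difference was -0.58 and -0.49 in replicates I and II. It is a short plate, and its highest probe was at 0.65, where every other plate reached above 1.

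The drop was not gradual. Plate 12 had ended high, with TC12H10 at 1.94 and 1.66 in replicates I and II and TC12H12 at 1.19 and 0.87. The first 10 probes of plate 13 had medians of 0.13 and 0.22. Of these 10, 4 were called higher, close to the 40.3% of all probes on the array that were. Then a run of 8 low probes, TC13A11 to TC13B06, averaged -0.89 and -0.92 in replicates I and II. The step into it was sharp, with TC13A10 at 0.26 and 0.18 and TC13A11 at -1.005 and -1.24. The following 12 probes were mixed around 0, with medians of 0.052 and 0.053. Of these 12, 3 were called higher and 3 lower, where 40.3% and 40.2% of all probes on the array were.

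The last 4 probes were all low in both replicates. TC13C07 was at -0.78 and -1.05 in replicates I and II, TC13C08 at -0.92 and -1.21, TC13C09 at -1.20 and -1.01, and TC13C10 at -1.69 and -1.88. The probe before them, TC13C06, had 0.030 and -0.65, and it was called lower although its replicates disagreed in sign. Replicate I fell at each of the last steps, while replicate II rose by 0.20 between TC13C08 and TC13C09. The decline thus covers the last few probes only. A shallower low run had already come and gone within the same plate. By the mean of both replicates its lowest probe was at -1.15, against -1.78 at TC13C10.

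Plate numbers 14 to 16 were not analysed here, so what directly follows plate 13 was not observed. The next valued probe by number was TC17D01, at -1.81 and -1.68 in replicates I and II, and all 59 probes of plate 17 were called lower, with medians of -1.85 and -1.69. TC13C10 alone had reached this depth in plate 13, and whether plates 13 and 17 join is not known.

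**Figure D5:**
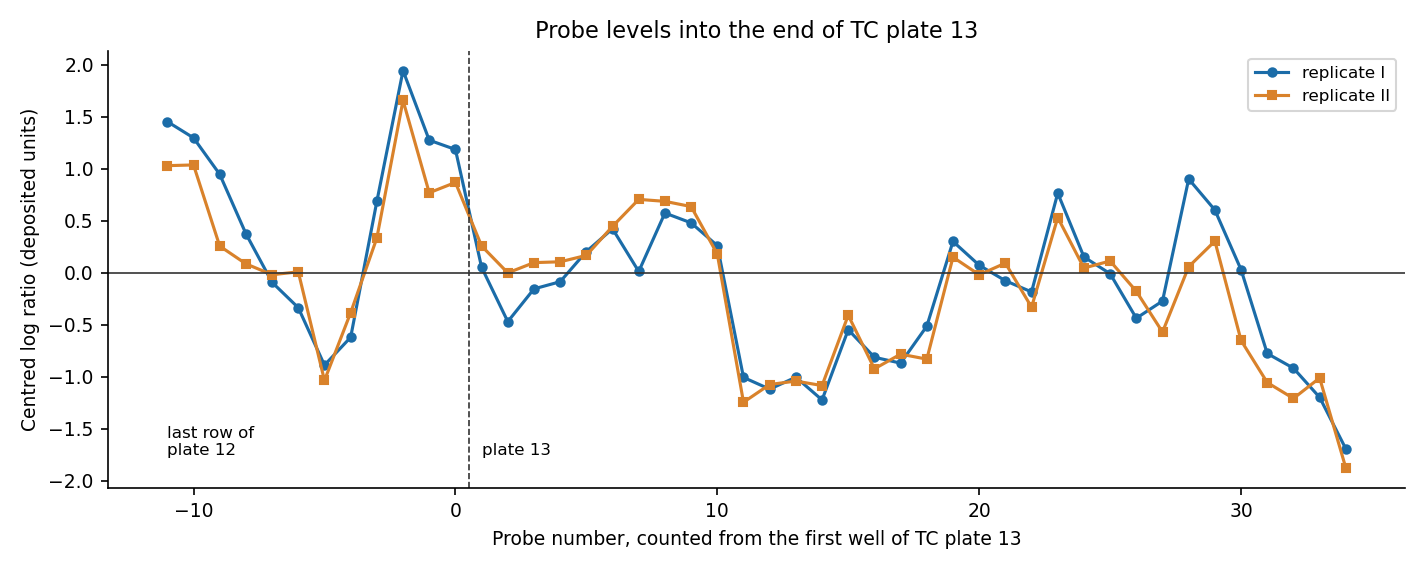
Centred log ratio (deposited units) of single probes in replicate I (circles) and replicate II (squares), from the last row of TC plate 12 through the 34 probes of plate 13. Low probes occur at numbers 11 to 18 and again at 31 to 34, with values on both sides of 0 between them.

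Both replicates gave nearly the same picture of these plates. Pearson's r between them was 0.926 and Spearman's rho 0.909 across the 1281 probes, which are not independent. The sign was the same in 1187 probes (92.7%), and of the other 94 all but 2 were uncalled. Across the 14 plate medians r was 0.947, again as a description of neighbouring plates on the same arrays. The difference between replicates had an SD of 0.29, against 0.74 for the replicate means, and it exceeded 0.5 in 115 probes (8.98%).

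The largest disagreement was at TC02A08, with -0.40 and 0.71 in replicates I and II, which passed in neither direction. TC03C07 (-0.63 and -1.62) and TC03C08 (-0.83 and -1.72) were neighbours in a low run and low in both. TC12C04 (0.50 and 1.40) was high in both, and TC06E01 (-0.65 and -1.54) low in both. In 4 of these 5 probes the replicates thus differed in size and not in direction.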

How the data were processed

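Per the labels, 15 µg of immunoprecipitated DNA was compared with 15 µg of input DNA, amplified and then labelled directly with the dyes Cy3 and Cy5. The deposited values are log ratios of the 2 channels, identical in both arrays of a swap, so they are not separate readings of each array. The sources used here give neither their base and direction nor how background and normalization were handled. Medians as deposited were -0.023 (replicate I) and 0.47 (replicate II), so each replicate was centred on its median over all 21728 valued probes, with no loess or quantile step. No scanner intensities were used here, and precision is limited by the number of arrays. Calls come from limma 3.58.1 (R 4.3.3), an intercept-only model of both replicates tested two-sided against 0, with Benjamini-Hochberg adjustment across the array. It estimated 117 prior degrees of freedom, a loose estimate, since only 1 residual degree is left per probe. This step was run on simulated data with independent noise, in which 200 of 21728 probes were changed. Of changes of size 0.5, 40.55% were recovered, and of changes of size 1, 100%. In the real data far more probes were called and replicate differences were not independent along the wells. The simulation therefore does not measure the error of the real calls. An empty well ends a run. Named are the 5 highest and 5 lowest probes, the 5 longest runs each way, the 5 largest steps, the 5 largest replicate differences and the probes at both ends of the range. Summaries used Python 3.11.15, numpy 2.4.6 and pandas 2.3.3. The plates, limits and rules were chosen with earlier results of these data known.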

Additional observations from a re-analysis of the deposited data

How the results depend on the processing

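Of 43 alternatives to 10 results, 26 stayed within 1.5 times a count or within the spread between replicates, 14 moved the value and 3 turned its sign. The median of TC plates 0 to 13 (0.37) was -0.20 when centred on the main mode, 0.60 without centring, 0.34 with each profile divided by its own median absolute deviation, 0.24 as a mean and 0.39 without plate 13, and 0.37 to 0.38 with 1 replicate left out. Their difference from the TB series (0.031) became -0.0076 with means and -0.029 against the last 14 TB plates, and was 0.0079 to 0.054 with 1 replicate left out, so no direction is given to it. TC plate 0 minus TB plate 99 (0.095) was 0.14 with 24 probes on each side, 0.026 with means, and 0.084 to 0.11 with 1 replicate left out. Plate 13 minus plates 0 to 12 (-0.45) kept its sign throughout and was -0.52 to -0.39 with 1 replicate left out. Centred on the main mode, 224 probes were called higher (706) and 528 lower (317), and without centring 156 were called lower. When 1 uncalled probe did not end a run, 93 high runs remained of 168. The correlation of consecutive probes (0.658) was 0.630 with Spearman's rho, 0.608 with plate medians subtracted and 0.640 to 0.643 with 1 replicate left out. Another centre shifts each replicate by its own amount, without centring by -0.023 and 0.47 in replicates I and II; beyond that the cause of these moves was not tested. No paired analysis was possible because the series has 1 group. With 1 replicate left out no residual spread remains, so calls and runs were not recomputed. Signal over background was not examined.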

Other observations

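In TC plates 0 to 13, levels and replicate differences were also taken by well position on the plate. By the mean of both replicates, column 9 had the highest median of the 12 columns, with 0.54 in replicate I and 0.40 in replicate II, but in replicate II column 4 was the highest, at 0.47. Column 11 had the lowest median, 0.27 and 0.16. Of the 8 plate rows, row E was the highest by that mean, at 0.51 and 0.53, although row H stood at 0.52 in replicate I, and row G was the lowest at 0.20 in both replicates. Replicate II minus replicate I had a median of -0.11 in odd columns (641 probes) and -0.0092 in even columns (640 probes), with the odd columns lower in 8 of the 14 plates. In the TB series the order was the other way, with 0.029 in odd and -0.037 in even columns, and the odd columns were lower in 31 of 100 plates.

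By plate, the median of replicate II minus replicate I was farthest from 0 at the start of the range, at -0.19 in plate 0 and -0.15 in plate 1. The difference also varied along the well order: neighbouring probes of TC plates 0 to 13 had r = 0.220 for it across 1279 pairs, with 0.272 at a distance of 2 probes, -0.021 at 3 and 0.182 at 4. The replicate difference therefore held some structure along the wells and was not independent from probe to probe.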
